A study of Mus musculus with 2 samples.

Results

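The constant regions of antibodies and the joining chain were followed through the CD45+ cells of mouse liver metastases. The set was chosen by symbol and held 9 genes of the 56941 features in the files: the heavy-chain genes Ighm, Ighd, Ighg1, Ighg2b, Ighg2c and Igha, the light-chain genes Igkc and Iglc2, and Jchain. All 9 had UMIs (unique molecular identifiers, counts of captured transcripts) in both libraries. The Ctrl library came from lesions of MC38-LM3b cells, a liver-metastatic derivative of the MC38 colon carcinoma line, carrying a scrambled hairpin (shScramble), and the KD library from the same cells carrying a hairpin against SLAMF3 (shSLAMF3). The hairpin was in the injected tumor cells, so the immune cells of both groups were those of unmodified C57BL/6 hosts of 6 to 8 weeks, injected into the spleen. Lesions of 3 mice were pooled into each library, so mice could not be told apart, there was no test, and every interval given is a 95% interval for counting error alone.

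A B cell makes its heavy chain from a rearranged variable segment joined to Ighm. The neighbouring Ighd is reached by alternative splicing of the same transcript, so naive B cells carry IgM and IgD together. Class switching moves the variable segment next to an Ighg, Ighe or Igha gene further along the locus, and in the reference annotation the order was Ighm, Ighd, Ighg3, Ighg1, Ighg2b, Ighg2c, Ighe and Igha. Light chains come from the kappa locus, with the constant gene Igkc, or from the lambda locus, with several constant genes. Plasma cells secrete antibody in bulk, and Jchain encodes the small protein that joins IgM and IgA subunits into polymers. The libraries read transcripts from the 3′ end, so membrane and secreted forms were counted together.

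Because constant genes arose by duplication, the letters that tell them apart decide what a count can mean. The last 60 coding bases of 3 lambda constant genes, stop codon included, are shown first, with capitals at positions where the 3 differ (GENCODE transcripts, GRCm38, minus strand, at chr16:19061752-19061811, chr16:19198536-19198595 and chr16:19065365-19065424 in the order printed).
Iglc1: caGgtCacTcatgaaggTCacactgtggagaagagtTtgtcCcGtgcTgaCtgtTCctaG
Iglc2: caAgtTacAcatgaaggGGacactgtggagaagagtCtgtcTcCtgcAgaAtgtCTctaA
Iglc3: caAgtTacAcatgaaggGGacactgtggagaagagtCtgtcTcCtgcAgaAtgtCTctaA
Iglc2 and Iglc3 were identical in all 60 bases shown and in 96.2% of aligned positions over the whole coding part, whereas Iglc1 matched Iglc2 at 47 of the 60. A read that lies wholly in this stretch cannot be given to one of Iglc2 and Iglc3. Where the lambda reads fell was not examined, so how far their counts are affected is unknown.

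The same stretch of the gamma constant genes is shown for how far these genes differ near the 3′ end, although where the reads fell was not examined here (chr12:113328976-113329035, chr12:113306389-113306448, chr12:113287389-113287448 and chr12:113359665-113359724, minus strand), again with capitals where the 4 are not all alike.
Ighg1: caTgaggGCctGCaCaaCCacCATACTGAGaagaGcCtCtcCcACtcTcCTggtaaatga
Ighg2b: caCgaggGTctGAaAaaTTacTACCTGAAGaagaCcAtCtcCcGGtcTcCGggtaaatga
Ighg2c: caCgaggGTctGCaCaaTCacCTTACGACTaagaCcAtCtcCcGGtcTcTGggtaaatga
Ighg3: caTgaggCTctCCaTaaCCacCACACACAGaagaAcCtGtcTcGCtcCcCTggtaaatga
The 4 genes differed at 26 of 60 positions. The closest pair over the whole coding part, Ighg2b and Ighg2c, shared 85.9% of aligned positions and differed in this stretch too, with 49 of 60 bases alike. The authors' files use the GRCm39 build, and the coordinates above belong only to the sequences printed.

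The Ctrl library held 10416 barcodes and 67207234 UMIs and the KD library 10943 barcodes and 64444715 UMIs, of which 9814 and 10185 passed the study's limits on genes, UMIs and mitochondrial reads. The libraries shared 27 barcodes. Clusters were named from marker lists, and the names below stand for "B cell-like", "T cell-like" and so on. One cluster, of 164 Ctrl and 173 KD cells, had no name. The cluster named for NK cells was mixed: its leading genes held Lef1, Tcf7 and Satb1 beside the NK cell genes Klra7, Ncr1 and Klrb1c, and at resolution 1.0 of the clustering nearly all its cells fell into a cluster named T cell or one named NK cell. Ly9, the gene of SLAMF3, had 12 UMIs in the 161 Ctrl cells and 7 in the 96 KD cells of the tumor and fibroblast cluster, or 5.91 (3.05 to 10.3) and 5.36 (2.15 to 11.04) CPM (UMIs of a gene in each 1000000 UMIs of the class), so the knockdown was not detectable at this depth in a CD45+ sort.

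B cells formed 1 cluster with 269 Ctrl cells, or 2.74% (2.43 to 3.08) of the library, and 862 KD cells, or 8.46% (7.93 to 9.02). All 12 listed B cell markers were raised in it over the other cells. Cd79a, a signalling partner of membrane immunoglobulin, had a UMI in 83.3% of its Ctrl and 86.7% of its KD cells, and the transcription factor Ebf1 in 97.4% and 98.3%. The cells were shallow and of like depth, with medians of 2556 UMIs in Ctrl and 2575 in KD. Markers of other cells were present as well: at least 2 of the T cell, macrophage or granulocyte markers had a UMI in 106 Ctrl and 425 KD cells of the cluster. S100a8, a granulocyte gene, had a UMI in 9.29% of B cells in Ctrl and 29.8% in KD, and its part in the results below was not tested.

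Antibody-secreting cells were looked for first, because a few of them can carry most of the immunoglobulin UMIs of a library. The rule set for them, at least 4 of 11 plasma cell markers and at most 1 marker of plasmacytoid dendritic cells (pDCs), took 63 Ctrl and 56 KD cells. These were not antibody-secreting cells by the members: Jchain was at 0 in each of them, the median share of their UMIs in the 9 genes was 0, and 59 and 45 of them lay in T cell or macrophage clusters. Markers such as Xbp1 and Irf4 are also used by those cells. A second rule, chosen after the values were seen, asked for at least 7 of the 11 markers and at least 5% of the cell's UMIs in the 9 genes. It took 3 Ctrl cells, 0.0306% (0.0063 to 0.0893) of the library, and 8 KD cells, 0.0785% (0.0339 to 0.155), and these are called plasma-like below. The intervals of the libraries overlapped. All 11 cells had 2 to 4 pDC markers, so the first rule, with its limit of at most 1, had left each of them out. Since the second rule used the members and the plasma cell markers, the high values of both in these 11 cells are a description.

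Each plasma-like cell was dominated by a single heavy-chain gene (the plot of member UMIs in each plasma-like cell). The leading gene made up at least 95.9% of the heavy-chain UMIs in every one of the 11 cells. It was Ighg1 in 2 Ctrl and 2 KD cells, Ighg2c in 3 KD cells, Ighm in 2 KD cells, Ighg2b in 1 KD cell and Igha in 1 Ctrl cell. In Ctrl the leading genes had 688 (Ighg1), 233 (Igha) and 213 (Ighg1) UMIs. In KD they had 1372 (Ighg2b), 1342, 675 and 589 (Ighg2c), 721 and 540 (Ighm), and 664 and 537 (Ighg1). Ighd was at 0 in each.

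**Figure D1:**
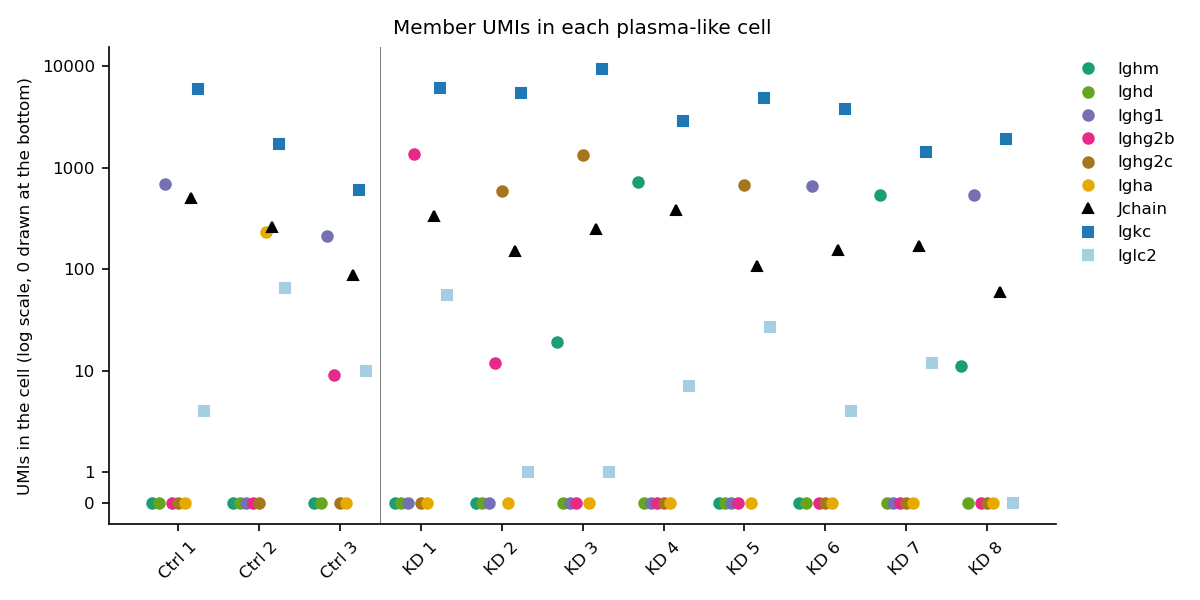
UMIs of the 9 genes in each plasma-like cell (log scale, 0 drawn at the bottom), with cells numbered within a library by the share of their UMIs in the 9 genes. Each cell has 1 heavy-chain gene above 200 UMIs, Igkc between 596 and 9435 UMIs and Jchain between 59 and 504.

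All 11 plasma-like cells used kappa. Igkc had 5971, 1718 and 596 UMIs in the Ctrl cells and from 1438 to 9435 in the KD cells. It made up at least 96.4% of the light-chain constant UMIs of each. Jchain was present whatever the class of the heavy chain. The cells with Ighm had 386 and 169 Jchain UMIs and the cell with Igha had 262. The 8 cells with an Ighg gene spanned 59 to 504. The 9 genes together took from 5.21% of a cell's UMIs, in a Ctrl cell with Ighg1, to 53.8%, in the KD cell with Ighg2b. The cells were deep, at 8033 to 21957 UMIs. Their variable segments also differed: the leading Ighv segment and the leading Igkv segment were each different in all 11 cells.

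Several of the listed plasma cell markers were thinly captured, although the rule asked for at least 7 of the 11, so that detection of most was built in. Xbp1, the transcription factor that expands the secretory machinery, had 4 to 30 UMIs in each cell. Sdc1, the surface protein of plasma cells, had a UMI in 7 of the 11 cells, Mzb1, a chaperone of antibody assembly, in 4, and Tnfrsf17, the survival receptor BCMA, in 4. Prdm1, another listed marker, had 2, 1 and 3 UMIs in the Ctrl cells and 0 in every KD cell. Derl3, also listed, had 0 to 5 UMIs a cell. Pax5, the B cell factor that is silenced in plasma cells, was at 0 in all 11. Other B cell markers were present: each cell held 2 to 7 of the 12, and Cd79a had 1 to 6 UMIs in each. Of these cells 8 lay in the B cell cluster. The other three, all KD, lay in granulocyte clusters (the cells with 675 Ighg2c and 664 Ighg1 UMIs) and in the NK cell cluster (537 Ighg1 UMIs). The second of these also had 460 S100a8 and 651 S100a9 UMIs and 9 granulocyte markers, and the third had 17 Trbc2 UMIs and 8 T cell markers. The part of joined cells in these barcodes was not tested.

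Just outside the rule stood 3 cells with at least 5% of their UMIs in the 9 genes but at most 2 plasma cell markers. A KD cell of the B cell cluster had 36 Igha, 386 Igkc and 3 Jchain UMIs, 16.7% of its 2552 UMIs, and only 1 of the 12 B cell markers. Another KD cell of that cluster had 48 Ighm and 93 Igkc UMIs, and a Ctrl cell in a macrophage cluster had 97 Igkc and 5 Igha UMIs. A Ctrl cell with 7 or more markers had no member UMI at all.

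The 11 cells held nearly all UMIs of Jchain and of the switched genes that led in one of them. In Ctrl they carried 98.1% (97.1 to 98.9) of the Ighg1 UMIs of the library, 97.1% (94.1 to 98.8) of Igha and 98.3% (97.2 to 99.0) of Jchain. In KD they carried 95.2% (93.8 to 96.3) of Ighg1, 98.2% (97.4 to 98.8) of Ighg2b, 99.1% (98.6 to 99.4) of Ighg2c and 98.4% (97.7 to 99.0) of Jchain. The exceptions were Ighg2b in Ctrl, with 9 of 33 UMIs in these cells, Ighg2c in Ctrl, with 0 of 2, and Igha in KD, with 0 of 42, for which no such cell was found. Igkc was shared more widely, with 59.3% (58.5 to 60.1) of its Ctrl and 70.4% (70.0 to 70.8) of its KD UMIs in them. Iglc2 had 9.74% and 4.53% there. Ighm had none of its 4171 Ctrl UMIs there, which allows a share of up to 0.0884%, and 14.3% of its KD UMIs.

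These cells therefore set the sums of the B cell cluster. Ighg1 had 902 UMIs in the 269 Ctrl B cells and 5 in the 862 KD B cells, but 901 of the 902 lay in 2 plasma-like cells. Ighg2b had 29 and 1398 UMIs, Ighg2c 2 and 1932, and Igha 234 and 41. Jchain had 853 and 1289. Scaled to CPM, Ighg2b and Ighg2c were at least 2-fold higher in KD, with log2 ratios of 3.99 (3.46 to 4.57) and 8.31 (6.46 to 11.4), the latter from 2 Ctrl UMIs. Ighg1, Igha and Jchain were at least 2-fold lower, at −9.10 (−10.7 to −7.87), −4.11 (−4.63 to −3.63) and −1.01 (−1.13 to −0.88). The size for Ighg1 and Igha differed with how B cells were taken: Ighg1 was at −2.39 when immunoglobulin genes were kept in the clustering and at −1.58 when B cells were called cell by cell, and Igha was at −8.38 with a stricter cell filter and −7.08 cell by cell. Thus 5 of the 9 members passed a 2-fold limit with an interval without 0, where 2.53% of 6588 genes with at least 50 UMIs did so (1.15% higher, 1.38% lower).

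Without the plasma-like cells, 266 Ctrl and 857 KD B cells remained and the picture changed (the plot of ratios with and without plasma-like cells). Ighg1 had 1 UMI in Ctrl and 5 in KD, with a log2 ratio of 0.68 (−2.48 to 6.24). Ighg2c had 2 and 1, at −2.64 (−8.53 to 1.62). Jchain had 0 and 5. Ighg2b turned to 20 UMIs in Ctrl against 14 in KD, at −2.16 (−3.25 to −1.10), and Igha to 1 against 41, at 3.72 (1.16 to 9.05), of which 36 lay in the single KD cell with 16.7% of its UMIs in members. Ighg2b and Igha passed the 2-fold limit, but on fewer than the 50 UMIs asked of other genes, and 13 of the 20 Ighg2b UMIs in Ctrl lay in 1 cell. Of the members with at least 50 UMIs, Ighm, Ighd, Igkc and Iglc2, none passed, where 2.19% of 6497 genes did. When the 1% of B cells with most member UMIs was left out instead, Igha was at 0.70 (−2.46 to 6.26) and Ighg2b alone passed the limit, at −2.78. That 1% held 3 Ctrl and 9 KD cells, of which 3 and 5 were plasma-like, so these settings are not separate checks.

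**Figure D2:**
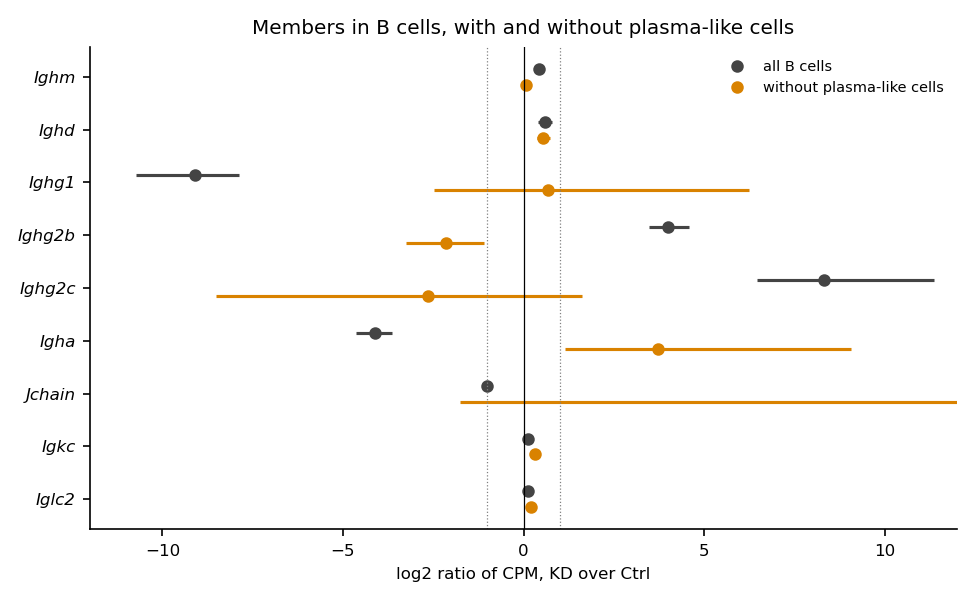
log2 ratio of CPM (KD over Ctrl) for each gene in B cells, over all cells of the cluster (grey) and without plasma-like cells (orange), with 95% counting intervals cut at the plot's edge and dotted lines at 2-fold. Ighg1, Ighg2b, Ighg2c and Igha change side, Jchain without plasma-like cells has an interval but no point because Ctrl is at 0, and Ighm, Ighd, Igkc and Iglc2 lie within 2-fold under both.

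The genes of unswitched B cells were spread over many cells. Ighm had a lowest, median and highest count of 0, 4 and 40 UMIs a cell in Ctrl, and of 0, 5 and 721 in KD, or 48 without the plasma-like cells. Its level was 2055 CPM (1954 to 2160) in Ctrl and 2142 (2083 to 2202) in KD without the plasma-like cells. The log2 ratio of 0.06 (−0.02 to 0.14) was small and its interval held 0. Over all cells of the cluster it was 0.43, and the 2 KD cells with 721 and 540 UMIs made the difference.

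Ighd differed without any outlying cell. Its counts ran from 0 over a median of 1 to 7 UMIs a cell in Ctrl and from 0 over 1 to 8 in KD. Its level was 369 CPM (327 to 415) in Ctrl and 539 (510 to 570) in KD, a log2 ratio of 0.55 (0.36 to 0.74) without the plasma-like cells, below the 2-fold limit. A UMI of Ighd was found in 53.0% of Ctrl and 70.0% of KD B cells, 17.004 points higher (10.1 to 23.9). Thinning every cell to 1500 UMIs dropped 31 Ctrl and 73 KD cells that were shallower, and the shares were 45.1% and 54.3%, 9.23 points higher (1.73 to 16.6). In macrophages, which should lack the gene, 0.36% and 1.07% of cells had an Ighd UMI at median depths of 5595.5 and 7426.5 UMIs. The shares in B cells stood above those in macrophages in both libraries.

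Classes were called at 2 UMIs. Most B cells had IgM transcripts (the bar chart of heavy-chain genes). Without the plasma-like cells, Ighm and Ighd together were called in 69 of 266 Ctrl cells, 25.9% (20.8 to 31.6), and in 322 of 857 KD cells, 37.6% (34.3 to 40.9), a difference of 11.6 points (5.07 to 17.8). Ighm without Ighd was called in 161 Ctrl cells, 60.5% (54.4 to 66.4), and 450 KD cells, 52.5% (49.1 to 55.9), a KD minus Ctrl difference of −8.02 points (−14.8 to −0.99). Ighd without Ighm was rare, at 1.504% and 1.63%. No call was made in 10.5% (7.11 to 14.9) of Ctrl and 7.70% (6.01 to 9.69) of KD cells, and these were shallow, with medians of 1158.5 and 1309.5 UMIs. At 1500 UMIs a cell the share with both genes fell to 10.6% in Ctrl and 15.9% in KD, so a cell with Ighm alone may have Ighd below detection, and the difference was 5.31 points (0.016 to 9.87).

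**Figure D3:**
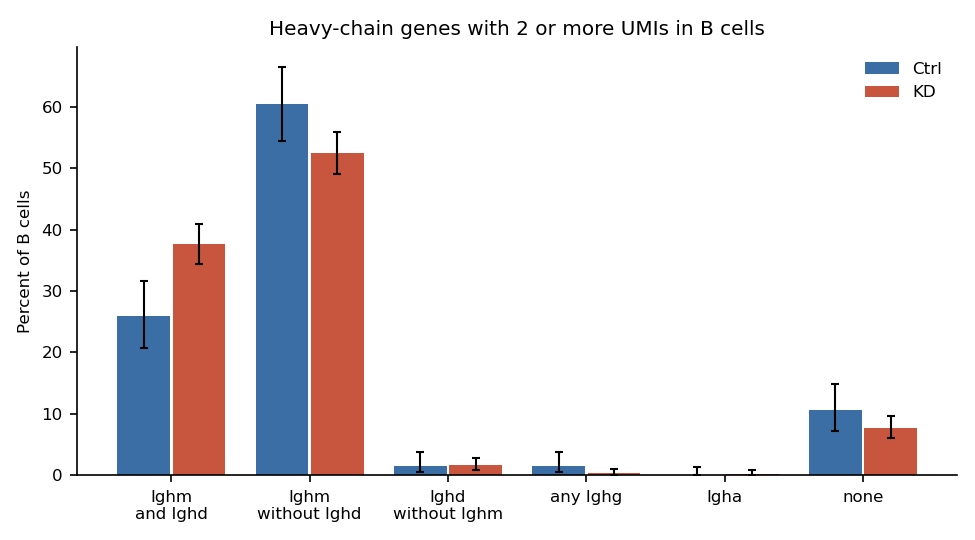
Percent of B cells (266 Ctrl, 857 KD, without plasma-like cells) with 2 or more UMIs of the heavy-chain genes named below each pair of bars, with 95% Clopper-Pearson intervals. The share with both Ighm and Ighd is 25.9% in Ctrl and 37.6% in KD, and the Ighg and Igha groups hold at most 4 cells each.

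Switched B cells that were not plasma-like were few. An Ighg gene without Igha was called in 4 Ctrl cells, 1.504% (0.41 to 3.81), and in 3 KD cells, 0.35% (0.072 to 1.02). Igha was called in 0 of 266 Ctrl cells, which allows a share of up to 1.38%, and in 2 KD cells, 0.23% (0.028 to 0.84). The clearest was a Ctrl cell with 13 Ighg2b UMIs, no Ighm or Ighd and 8 of 12 B cell markers. One further Ctrl cell had 3 Ighg2b UMIs and no Ighm, and one had 2 Ighg2c and 5 Ighg3 UMIs. The remaining Ctrl cell had 2 Ighg2b beside 40 Ighm UMIs. The 3 KD cells with an Ighg gene without Igha had 2 to 5 Ighg2b UMIs beside 11 to 35 Ighm UMIs, and one of them held 18680 UMIs. Of the 2 KD cells with Igha, one had 36 Igha UMIs, as given above, but only 1 of the 12 B cell markers. The other had 3 Igha beside 4 Ighg2b UMIs and 8 B cell markers. Neither had Ighm or Ighd. Ighe had no UMI in B cells of either library, and Ighg3 had 9 and 5.

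The light chains were mostly kappa. Igkc had a median of 10 UMIs a cell in Ctrl and 12 in KD, and Iglc2 a median of 1 in both. Without the plasma-like cells Igkc stood at 4098 (3955 to 4245) and 5067 (4976 to 5159) CPM, a log2 ratio of 0.31 (0.25 to 0.36), and Iglc2 at 753 (692 to 817) and 868 (831 to 906), a log2 ratio of 0.21 (0.070 to 0.34). Both ratios were above 0 and well within 2-fold. Kappa was called in 80.5% (75.2 to 85.0) of Ctrl and 86.9% (84.5 to 89.1) of KD cells, 6.48 points higher (1.28 to 12.2). Lambda was called by Iglc2 in 22 Ctrl cells, 8.27% (5.26 to 12.3), and 54 KD cells, 6.30% (4.77 to 8.14), a difference of −1.97 points (−6.24 to 1.56) whose interval held 0. When Iglc1 and Iglc3 were added to Iglc2, the lambda shares were 12.8% and 11.2%. Cells with neither chain made up 11.3% and 6.77% and were the shallowest, with medians of 958.5 and 882.5 UMIs, so the kappa difference cannot be told apart from a difference in undetected cells.

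Around the antibody genes, fixed lists of B cell genes were read in the same cells (2-fold limit, genes with at least 20 UMIs, where 3.46% of 9164 genes passed). None of the 17 genes of the B cell receptor complex and its signalling passed. Cd79a and Cd79b, the signalling chains, were slightly higher in KD, at 0.22 (0.10 to 0.34) and 0.28 (0.10 to 0.46) on the log2 scale, and Pik3ap1, an adaptor of the receptor, slightly lower at −0.28. None of 8 measured genes of class switching and the germinal center passed.

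Genes of antibody secretion were the list that moved with the plasma-like cells. Most markers of the plasma-like rule are also in this list. A shift when these cells are left out was therefore built into the rule and is a description. Of 12 measured genes 12 had log2 ratios below 0 and 9 had intervals below 0, with a median of −0.59 against −0.02 over all genes, and 2 passed the limit: Tent5c, a poly(A) polymerase that stabilises immunoglobulin transcripts, at −1.499 (−2.15 to −0.85), and Creld2, an endoplasmic reticulum chaperone, at −1.43 (−2.16 to −0.70). Hsp90b1, another chaperone, was at −0.98, Prdm1, the master factor of plasma cells, at −0.92 and Xbp1 at −0.68. The Ctrl sums rested on few cells: Xbp1 fell from 57 to 10 UMIs there when the plasma-like cells were left out, and its ratio turned to 0.82 (−0.17 to 1.95). Without these cells, 8 of 11 measured genes were below 0, 2 had intervals below 0, the median was −0.14, and Tent5c alone passed, at −1.45 (−2.36 to −0.53), where 3.02% of 9078 genes passed.

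Among the other lists 2 genes passed in all B cells. Pigr, the receptor that carries polymeric antibody across epithelia, had 0 UMIs in Ctrl and 21 in KD, 1 in each of 21 cells, which was at least 2.31-fold higher when Ctrl was set to 3 UMIs. Tbx21, a factor of age-associated B cells, was lower in KD with 18 and 26 UMIs, at −1.07 (−1.99 to −0.12). Without the plasma-like cells Cd80, a co-stimulatory ligand of memory B cells, passed as well, at −1.13 (−2.19 to −0.03). None of 6 follicular genes passed: Cxcr5, the follicle-homing receptor, was at −0.45 (−0.75 to −0.15), and Fcer2a, the low-affinity IgE receptor CD23, at −0.36 (−0.67 to −0.03). Of 8 marginal zone and B1 genes none passed, with Plac8 at −0.86 (−0.98 to −0.75). Of 3 measured precursor genes none passed, with Vpreb3 at 0.35, and Rag1, Rag2, Dntt and Igll1 were below the 20 UMIs needed. None of 3 measured survival receptors and ligands passed, with Tnfrsf13b (TACI) at −0.46 (−0.92 to 0.02). Of the other constant genes 2 were measured and none passed, with Iglc1 at 0.60 (0.36 to 0.85).

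B cells with Ighm but not Ighd were next set against those with both, within each library and at like depth (medians of 2553 and 2697 UMIs in Ctrl, 2532 and 2726 in KD, where the IgM-only set held the 2 plasma-like cells with Ighm). Of 6234 genes 0.754% differed by 2-fold over both libraries together. The genes that led over both libraries together, with the same direction in each, had low counts. Ctla4, an inhibitory receptor, had 43 UMIs in IgM-only cells and 9 in the others, at 1.75 (0.69 to 2.97), Stx11 41 and 10, and Rbm47 56 and 16. Lrmda, Pld4, Prpf31, Cebpzos and Eif2b5 followed with log2 ratios of 1.18 to 1.30. In the other direction Gzmb had 16 and 54 UMIs, at −2.26 (−3.17 to −1.43), Ppm1h 19 and 40, and Gpat3 23 and 39, and Ccser1, Slc25a32, Rspry1, Slfn8 and Gramd1b lay between −1.09 and −1.07. In Ctrl alone the ratios of the lower genes ran from −1.86 (Rspry1) to −0.57 (Slfn8), with Gzmb at −0.63 on 9 and 6 UMIs. Those of the higher genes began at 0.37 (Cebpzos), and Ctla4 had 7 and 0 UMIs. Gzmb and Ctla4 are genes of cytotoxic and regulatory T cells. Most of their UMIs were in KD cells, as were most of the cells compared (452 and 322 in KD, 161 and 69 in Ctrl).

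Of the fixed subset genes, 2 had intervals on the same side of 0 in both libraries. Fcer2a was lower in IgM-only cells, at −0.76 (−1.35 to −0.16) in Ctrl and −0.60 (−0.97 to −0.23) in KD. Ccr7, a chemokine receptor of follicular and recirculating B cells, was higher, at 0.86 (0.29 to 1.46) and 0.34 (0.10 to 0.59). Cd9, a marker of marginal zone and B1 cells, was at 1.40 (0.71 to 2.14) in KD and 0.00 (−1.18 to 1.31) in Ctrl, and these intervals overlapped. Zeb2, a factor of age-associated B cells, was at 0.68 (0.11 to 1.28) in Ctrl but −0.48 (−0.75 to −0.21) in KD. Plac8 also had intervals on opposite sides of 0, at −0.28 (−0.48 to −0.06) and 0.23 (0.08 to 0.38).

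The 15 cells of the B cell cluster with an Ighg or Igha call, of which 6 were plasma-like, differed widely from the 391 with Ighm and Ighd, with 37.6% of 3999 genes past 2-fold. They were deeper, with medians of 7120 UMIs in Ctrl and 9309 in KD against 2697 and 2726, and the leading ratios were those of the plasma-like cells. Slpi, a secreted protease inhibitor, led with 4174 UMIs against 9, a log2 ratio of 11.8 (10.9 to 13.0). All 4174 lay in the 6 plasma-like cells, as did 239 of 247 UMIs of Ly6c2 and 91 of 92 of Xbp1. Over all 11 plasma-like cells it was high in most but not all, at 483, 0 and 179 UMIs in Ctrl and from 9 to 2022 in KD. The 2 lowest KD values, 9 and 12, were those of the cells with Ighm. Ly6c2, a surface protein of plasma cells and monocytes, followed with 247 against 16 UMIs at 6.91, then Xbp1 at 5.24, Lman1, a cargo receptor of the secretory pathway, at 3.997, Prdx4, an oxidase of the endoplasmic reticulum, at 3.84, Ssr2 at 3.53, Edem2 at 3.51 and Rexo2 at 3.47. At the low end 50 genes had no UMI in the 15 cells, so the 8 lowest could be ranked only by name: Abl1, Agbl1, Bcl7b, Cacna1i, Calcrl, Ccl3, Cd200 and Cd40.

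Outside the B lineage each member had its own order of cell classes (the plots of level by cell class). Among named classes Ighm came second in pDCs, interferon-producing cells that are known to carry partial rearrangements of the heavy-chain locus. It stood there at 733 CPM (659 to 813) in 82 Ctrl cells and 760 (681 to 845) in 72 KD cells, against 24.2 and 18.9 in macrophages. The log2 ratio of pDCs to macrophages was 4.92 (4.73 to 5.11) in Ctrl and 5.33 (5.12 to 5.54) in KD. A UMI was found in 95.1% of Ctrl and 88.9% of KD pDCs, and at 1500 UMIs a cell in 63.8% and 72.5%. Cd79a had no UMI in pDCs of either library.

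**Figure D4:**
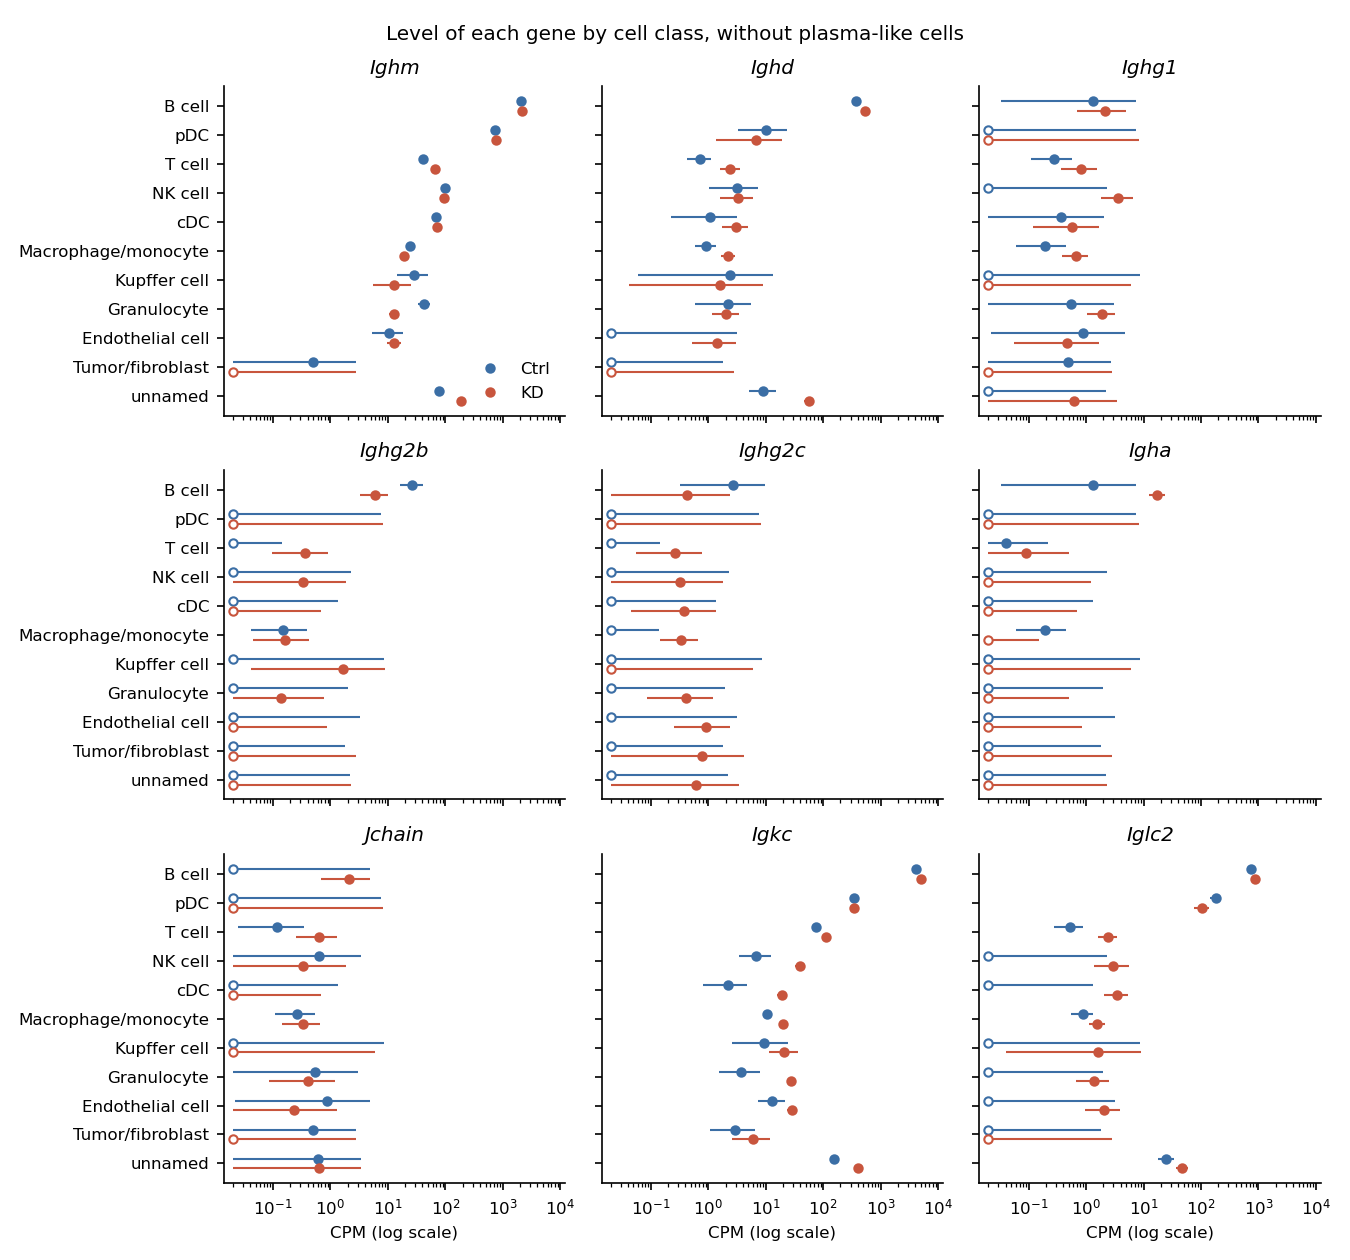
CPM, or UMIs per 1000000 (log scale), of each gene by cell class in Ctrl (blue) and KD (red), without plasma-like cells, with exact Poisson 95% intervals cut at the left edge. Open circles stand for 0 UMIs. Ighm, Igkc and Iglc2 are highest in B cells and second among named classes in pDCs, and Jchain is near 0 in every class.

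After pDCs came the mixed NK cell cluster, at 99.7 (84.9 to 116) and 93.5 (82.9 to 105) CPM of Ighm, and conventional dendritic cells, at 68.3 (58.9 to 78.8) and 71.9 (64.9 to 79.6). T cells stood at 41.5 (39.0 to 44.1) and 66.9 (62.2 to 71.9), the latter not apart from KD dendritic cells. Granulocytes stood at 42.8 (33.9 to 53.3) in Ctrl, not apart from T cells, but at 12.8 (10.3 to 15.7) in KD. The tumor and fibroblast cluster had 1 Ighm UMI in Ctrl and 0 in KD. Ighd did not follow: it was at 10.2 (3.31 to 23.8) and 6.70 (1.38 to 19.6) in pDCs and at most 3.29 in the other named classes outside B cells.

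In pDCs the light chains also differed from B cells. Igkc was at 341 (291 to 397) and 342 (290 to 401) CPM and Iglc2 at 180 (144 to 221) and 103 (75.3 to 137). Iglc3, no member but the near copy of Iglc2, was at 325 (276 to 379) and 407 (350 to 470), against 260 (225 to 299) and 262 (242 to 283) in B cells. How far the identical stretch affects the split between this pair is unknown, as given above. Iglc1 had 0 UMIs in Ctrl and 14 in KD pDCs. Of the UMIs of Ighm and Igkc together, Ighm made up 68.3% (64.1 to 72.2) in Ctrl and 69.0% (64.7 to 73.0) in KD pDCs, against 33.4% (32.04 to 34.8) and 29.7% (29.0 to 30.4) in B cells. The intervals did not overlap.

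Igkc was found in the 3 clusters named T cell. It had a UMI in 24.9% of 3223 Ctrl and 23.5% of 1622 KD T cells, at median depths of 6601 and 5577, and in 1.67% and 6.02% of macrophages, at 5595.5 and 7426.5 (the plots of Igkc and Ighm by class). Thinned to 1500 UMIs the shares were 8.35% and 8.77% in T cells and 0.63% and 2.04% in macrophages. The level was 73.9 (70.5 to 77.3) and 114 (108 to 120) CPM, where 1 KD T cell alone held 324 of 1275 UMIs, against 10.4 and 20.01 in macrophages. The log2 ratio of T cells to macrophages was 2.82 (2.64 to 3.01) in Ctrl and 2.51 (2.35 to 2.66) in KD. The cell with most Igkc in each class weighed on it: without those it was 3.43 and 2.16, and at 1500 UMIs a cell it was 1.63 and 2.34, where the Ctrl macrophage cluster still held the cell with 97 Igkc UMIs.

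**Figure D5:**
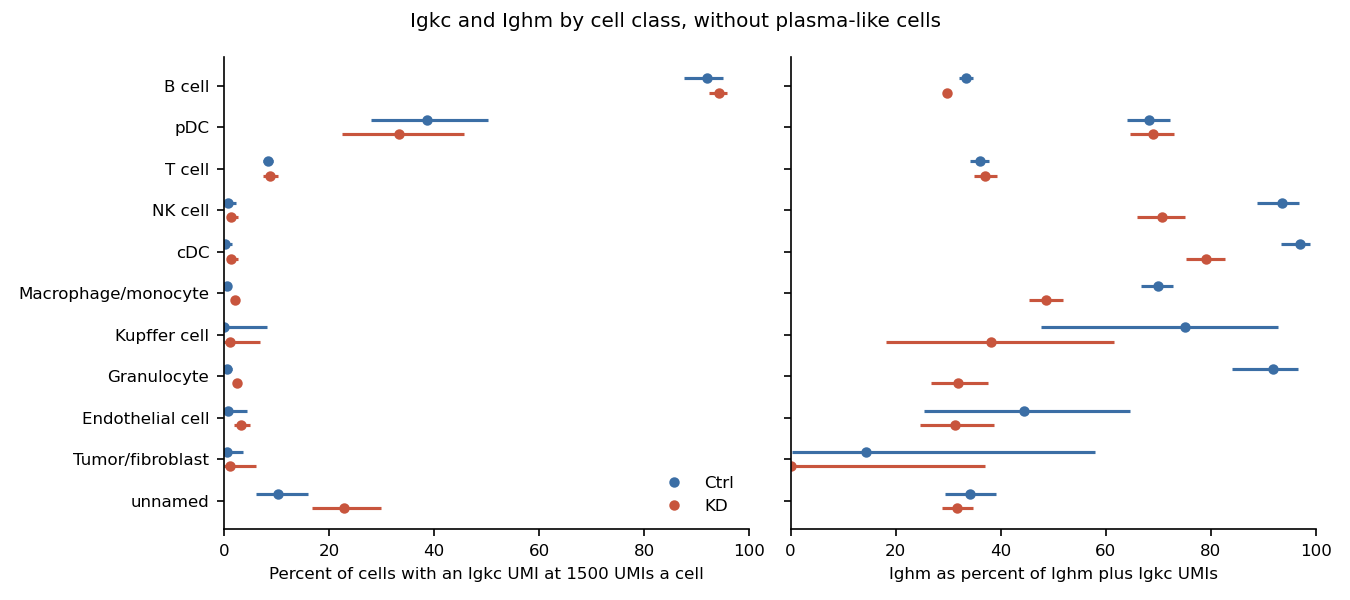
Left, percent of cells with an Igkc UMI after thinning to 1500 UMIs a cell, by cell class in Ctrl (blue) and KD (red). Right, Ighm as a percent of Ighm plus Igkc UMIs. Points have 95% Clopper-Pearson intervals and plasma-like cells are left out. T cells stand at 8.35% and 8.77% on the left, above the other named classes except B cells and pDCs, and pDCs stand at 68.3% and 69.0% on the right.

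The share was as large among T cells without B cell markers. Among T cells with no UMI of the 12 B cell markers, Igkc was found in 24.4% (22.8 to 26.0) of 2823 Ctrl and 23.5% (21.3 to 25.9) of 1373 KD cells, against 1.54% (1.15 to 2.02) and 4.72% (3.91 to 5.64) of such macrophages. Variable segments were scarce as well. For each 100 Igkc UMIs, B cells had 3.40 (2.78 to 4.12) and 2.70 (2.41 to 3.01) Igkv UMIs, and T cells had 0.269 (0.087 to 0.63) and 1.18 (0.66 to 1.94), in Ctrl and KD. Without the KD cell of 324 Igkc UMIs, KD T cells had 11 Igkv UMIs to 951 of Igkc. Iglc2 was nearly missing from T cells, at 0.52 and 2.41 CPM. Of the UMIs of Ighm and Igkc together, Ighm made up 36.0% (34.2 to 37.8) in Ctrl T cells, with an interval that overlapped that of Ctrl B cells. In KD T cells, the cell of 324 Igkc UMIs included, it made up 37.1% (35.0 to 39.2), apart from the 29.7% (29.0 to 30.4) of KD B cells. The part of RNA from B cells in the Igkc of T cells was not tested.

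At full depth the share differed between T cell lineages. T cells with Cd8a or Cd8b1 and no Cd4 had an Igkc UMI in 27.6% (25.9 to 29.3) of 2593 Ctrl and 31.1% (28.1 to 34.2) of 914 KD cells, and those with Cd4 alone in 14.3% (9.17 to 20.8) of 154 and 12.9% (9.67 to 16.6) of 381. Depth differed too, with medians of 7491 and 7096.5 against 4519.5 and 4563 UMIs. At 1500 UMIs a cell the shares were 8.65% (7.58 to 9.81) and 10.0% (8.16 to 12.2) against 4.70% (1.91 to 9.44) and 5.60% (3.50 to 8.43), with intervals that overlapped in both libraries. As a level in CPM, Igkc was at 75.6 and 93.6 in Cd8 cells and 59.96 and 72.3 in Cd4 cells, where the Ctrl intervals overlapped. Ighm went the other way at equal depth, with a UMI in 5.03% and 5.96% of Cd8 cells and 13.4% and 12.5% of Cd4 cells.

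Cd8 T cells with 2 or more Igkc UMIs (372 Ctrl, 154 KD) were set against those with 0 (1878 and 630), a split chosen after the data were seen. They were deeper, with medians of 10971.5 and 10140.5 UMIs against 6892 and 6426. Of 11687 genes 0.993% differed by 2-fold. Higher in both libraries were Ebf1 at 3.07 (2.54 to 3.62) and Blk at 2.48 (1.65 to 3.36) on the log2 scale, genes of B cells, and Igsf3 at 2.01, Wipf3 at 1.95 and Dapl1 at 1.41. Lower in both were Gzma, a granzyme, with 1838 against 19056 UMIs at −1.66 (−1.73 to −1.59), Ccl1, a chemokine, at −1.94, Ifit3 at −1.84 and the gamma-delta segment Trgv6 at −2.56. Ebf1 had 107 UMIs in the 526 cells with Igkc, and the part of B cell RNA in them was not tested.

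Igkc was low but higher in KD in granulocytes, conventional dendritic cells and the mixed NK cell cluster. Its level was higher in KD in macrophages and T cells too, as given above. Granulocytes had 3.79 (1.52 to 7.81) CPM in Ctrl and 27.3 (23.6 to 31.4) in KD, conventional dendritic cells 2.19 (0.80 to 4.77) and 19.0 (15.4 to 23.1), and the NK cell cluster 6.86 (3.42 to 12.3) and 38.9 (32.2 to 46.5). Within that cluster, the cells that were named T cell at resolution 1.0 had an Igkc UMI in 1.27% (0.26 to 3.67) of 236 Ctrl and 4.19% (2.58 to 6.40) of 477 KD cells, against 1.02% of 196 and 5.08% of 256 of those named NK cell, so both sets were near the macrophage shares. In Kupffer cells the libraries overlapped, at 9.44 (2.57 to 24.2) and 21.1 (11.2 to 36.1) CPM, and the tumor and fibroblast cluster had 6 and 8 UMIs. The KD library had more B cells and plasma-like cells, and S100a8, the granulocyte gene, had a UMI in 6.48% of Ctrl and 30.4% of KD cells of the NK cell cluster. In Ctrl granulocytes, dendritic cells and the NK cell cluster Ighm made up 91.9%, 96.9% and 93.6% of the UMIs of Ighm and Igkc. In KD granulocytes it made up 31.96% (26.6 to 37.7), not apart from KD B cells at 29.7%, and in KD dendritic cells and the KD NK cell cluster it was 79.1% and 70.6%. The part of background RNA in the Igkc of these classes was not tested. The cluster without a name, led by T cell and NK cell genes together with Ighd and Ebf1, stood at 153 (134 to 173) and 409 (378 to 441) CPM of Igkc.

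Switched classes and Jchain were next to absent from the other classes. Outside the plasma-like cells and the B cell cluster, Ighg1, Ighg2b, Ighg2c, Igha and Jchain each stayed below 4 CPM in every class of both libraries. Jchain, for which 98.3% and 98.4% of UMIs lay in 11 cells, had 7 UMIs in 4122 Ctrl and 8 in 3088 KD macrophages. Ighg1 had its highest level there in the KD cells of the NK cell cluster, at 3.62 (1.81 to 6.48), with at most 5 UMIs in a cell.

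The genes whose level followed a member most closely over 10 named classes in the 2 libraries (20 points that share libraries and cells, all cells of each class counted, 13368 genes compared) are given as a description. Ighd went with Fcer2a (Pearson r of 0.945), Chst3, Cd79b and Vpreb3 (0.919), most of them genes of B cells. Ighm went with Rps6ka5 (0.947), Haao, Sik1, Vps13b and Usp15 (0.889). Igkc went with Gm30211 (0.885), Smap2, Blk, Bicra and Gm51802 (0.833). Jchain, placed in the B cell cluster by 8 cells, went with Cr2 (0.920), Fcer2a, Pou2af1 and Cd79a (0.910).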

How the data were processed

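CD45+ cells were captured with the Chromium 3′ v3.1 kit in 2 libraries, and the groups followed the hairpin in the labels. The authors deposited, for each library, a matrix of raw UMI counts made with Cell Ranger 7.1.0 on GRCm39. The submitters' processing notes also name Seurat 5.1.0 and R 4.4.1. Every barcode holds at least 500 UMIs.

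The study's limits were used: 200 to 6000 genes, up to 30000 UMIs and up to 10% of them mitochondrial. No doublet caller was run, and cells with markers of other classes were counted and left out as an alternative. Cells were clustered in Seurat 5.3.0 (R 4.3.3) with 2000 variable genes, of which 1977 were left after immunoglobulin genes and Jchain were dropped, 20 components and resolution 0.5. A class needed 3 listed markers at a log2 fold of 1 in 10% of cells, judged by the 10 leading genes. Rebuilt names may differ from the study's.

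With 1 library per group no test was possible. Shares have Clopper-Pearson, UMI sums Poisson and ratios conditional binomial 95% intervals, computed with scipy, for counting error only. UMIs are not corrected for gene length, so levels of different genes were not ranked. The ratio was checked on simulated sums for the B cell comparison: it gave the right direction for 100% of 200 changed genes among 6588. A check on sums does not cover the spread between mice or UMIs held by a few cells. A count of 0 was set to 3 UMIs for a bound.

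Members, lists and rules were chosen with earlier results of these data known. Named were all members, list genes past 2-fold with at least 20 UMIs, the 5 genes most like a member among those with 200 UMIs, and the 8 highest and lowest genes between B cells of different heavy-chain class among genes with 50 UMIs (unnamed, mitochondrial and ribosomal genes left out). Other list genes and values named beside these were chosen after their values were seen. A few genes that these rules take are not reported here. Sequences are from GENCODE vM21 on GRCm38.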

Additional observations from a re-analysis of the deposited data

How the results depend on the processing

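With 1 library per group the spread between mice is unknown. The B cell medians of 2556 and 2575 UMIs limit calls of Ighd and of lambda. The difference in cells with Ighm and Ighd (5.34 to 17.1 points) and the difference in lambda (−3.15 to −0.61) kept their direction and stayed within the main interval under 11 and 7 alternatives. The members past 2-fold fell from 5 to 1 without cells with 2 markers of another class, to 2 without plasma-like cells, to 2 without cells with 2 T cell, macrophage or granulocyte markers, and to 1 without the 1% of B cells with most member UMIs. Log2 ratios reversed to 0.68 for Ighg1 without plasma-like cells, to 0.15 without cells with T cell, macrophage or granulocyte markers and to 0.70 without the top 1%. Without plasma-like cells and without the top 1% they reversed to −2.16 and −2.78 for Ighg2b, −2.64 and −2.62 for Ighg2c and 3.72 and 0.70 for Igha. These settings are not separate checks, since the top 1% held 3 Ctrl and 9 KD cells, of which 3 and 5 were plasma-like. The intervals held 0 for Ighg1 and Ighg2c under both and for Igha without the top 1%. Without cells with T cell, macrophage or granulocyte markers Jchain reversed to 0.33. Under the same setting Igkc went from 0.11 to 0.89, Ighm from 0.43 to 0.65 and Ighd from 0.59 to 0.37 (0.12 to 0.62). This setting left out only some of the plasma-like cells, so its Jchain, Igkc and Ighm values also reflect which of them stayed. The KD cells with 721 and 540 Ighm UMIs had at most 1 marker of each of these classes and stayed in. Without plasma-like cells Ighm was at 0.06 and Igkc at 0.31. The plasma rule took 63 Ctrl and 56 KD cells, but 333 and 302 at 3 markers, 5 and 6 at 5 markers, 4 and 10 at 5% member UMIs, 2 and 9 at 10%, and 3 and 8 by the rule added later. Igkc in T cells over macrophages moved in Ctrl to 1.63 thinned, 3.08 with the stricter filter, 3.20 in cells without a B cell marker and 3.43 without the highest cells, and in KD to 2.34, 2.27, 3.38 and 2.16. Ighm in pDCs over macrophages moved in KD to 5.10 with the stricter filter and 5.70 in cells without a B cell marker. Ighg1 went from −9.10 to −2.39 with immunoglobulin genes kept and −1.58 cell by cell, and Igha from −4.11 to −8.38 with the stricter filter and −7.08 cell by cell. Where no construction shows it, the cause was not tested. No paired analysis was possible because each group has 1 library.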

Other observations

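The plasma-like cells held lambda variable transcripts beside kappa chains. Iglv1, a lambda variable segment, had 120, 58 and 3 UMIs in the 3 Ctrl cells and from 2 to 795 in the 8 KD cells, although Igkc made up at least 96.4% of the constant light-chain UMIs of each. In 3 of the 11 cells the Iglv UMIs outnumbered the Igkv UMIs. The highest was the KD cell with 1342 Ighg2c and 9435 Igkc UMIs, with 795 Iglv1 UMIs, 372 of Igkv5-43, 7 of Iglc1 and 1 of Iglc2. B cells that were not plasma-like had 10 Iglv1 UMIs in 266 Ctrl cells and 18 in 857 KD cells.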
